A study of Mus musculus with 15 samples.

Results

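A list of 9 genes of the regulated exocytosis machinery was followed in RNA from ileum, the distal small intestine, of adult mice. They were taken as a named list by gene symbol: the SNARE genes Stx1a, Snap25 and Vamp2, the SNARE-binding tomosyn Stxbp5l, the synaptotagmins Syt7 and Syt13, the priming factors Cadps and Rims2, and the vesicle GTPase Rab3a. All 9 were found among the 37620 gene identifiers of the count tables, and all 9 passed the filter on low counts in every comparison. In cells that store peptides or amines in dense-core vesicles, a vesicle is brought to the plasma membrane by Rab3 and its effectors, primed by CAPS, RIM and Munc13 proteins, and fused when a vesicle SNARE zips up with syntaxin and SNAP25. Synaptotagmins sense the calcium signal that releases this step, and tomosyns occupy the target SNAREs and hold fusion back. In the gut wall the same machinery serves enteroendocrine cells of the epithelium and the neurons beneath it.

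The study deleted Rfx6, a transcription factor of enteroendocrine cells, in adult intestine and compared mutant with control ileum at an early and a late time. Animals labelled mutant were Rfx6f/f and carried Vilin-CreERT2, a Cre recombinase activated by tamoxifen and driven by the Villin promoter, which is active throughout the intestinal epithelium. Controls carried no Cre, so an effect of the recombinase and one of the deletion cannot be told apart. All animals were adult, and the tamoxifen protocol in the labels, 10 mg by gavage over a period of 5 days, is given without exception for either genotype. At 8 days there were 3 controls, all Rfx6f/f, and 4 mutants. At 3 months there were 4 controls, of which replicates 1 and 4 were Rfx6f/f and replicates 2 and 3 were Rfx6f/+, and 4 mutants. Library titles carry numbers that differ within each time, and 2 of these numbers occur at both times. No label states that each library is a separate animal, so p-values measure the spread between these libraries. The times were deposited as separate tables, and time and cohort cannot be told apart.

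Total counts per library, in units of 1000000, were 30.5 to 54.5 at 8 days and 26.1 to 36.3 at 3 months. The total count of Rfx6 did not fall with the label: it stood at 50 to 84 counts in controls and 44 to 105 in libraries labelled mutant at 8 days, and at 38 to 52 and 65 to 106 at 3 months. Its log2 fold changes were 0.19 (SE 0.18) and 0.72 (SE 0.17), with edgeR adjusted p of 0.867 and 0.0347. Gene counts do not separate the floxed exons from the rest of the gene, and directions below refer to the labels, so that mutant means a library labelled mutant. Markers of the intestine were present in all libraries, with summed levels of 5 epithelial genes between 8364 and 12454 counts per 1000000 (CPM).

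Of the 9 exocytosis genes, Stxbp5l alone differed at 8 days, and Stxbp5l, Snap25 and Vamp2 differed at 3 months, each with a higher level in the libraries labelled mutant. A gene was called at an adjusted p under 0.05 in edgeR's quasi-likelihood test over all genes. At 8 days this called 1 of 9 members, against 0.0915% of the 17493 genes tested, with 0.0343% of genes called higher and 0.0572% lower. At 3 months it called 3 of 9, against 9.28% of 17085 genes, with 4.96% called higher and 4.32% lower. The members were chosen with earlier results of these data known, so these counts beside the shares of all genes are no independent comparison. All 9 members had a positive log2 fold change at 3 months, with a median of 0.35 against 0.008 over all genes, and this held with either other scaling of the libraries. The split over all genes moved with the scaling: 53.5% of called genes at 3 months were higher, and 64.7% were higher when the 20 most counted genes were left out of the library sizes. At 8 days 3 members were positive and 6 negative, with a median of -0.07 against -0.002 over all genes. With the Rfx6f/f controls only, Stxbp5l was the 1 member called at 3 months, and over all genes the calls went from 1586 to 36.

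**Figure D1:**
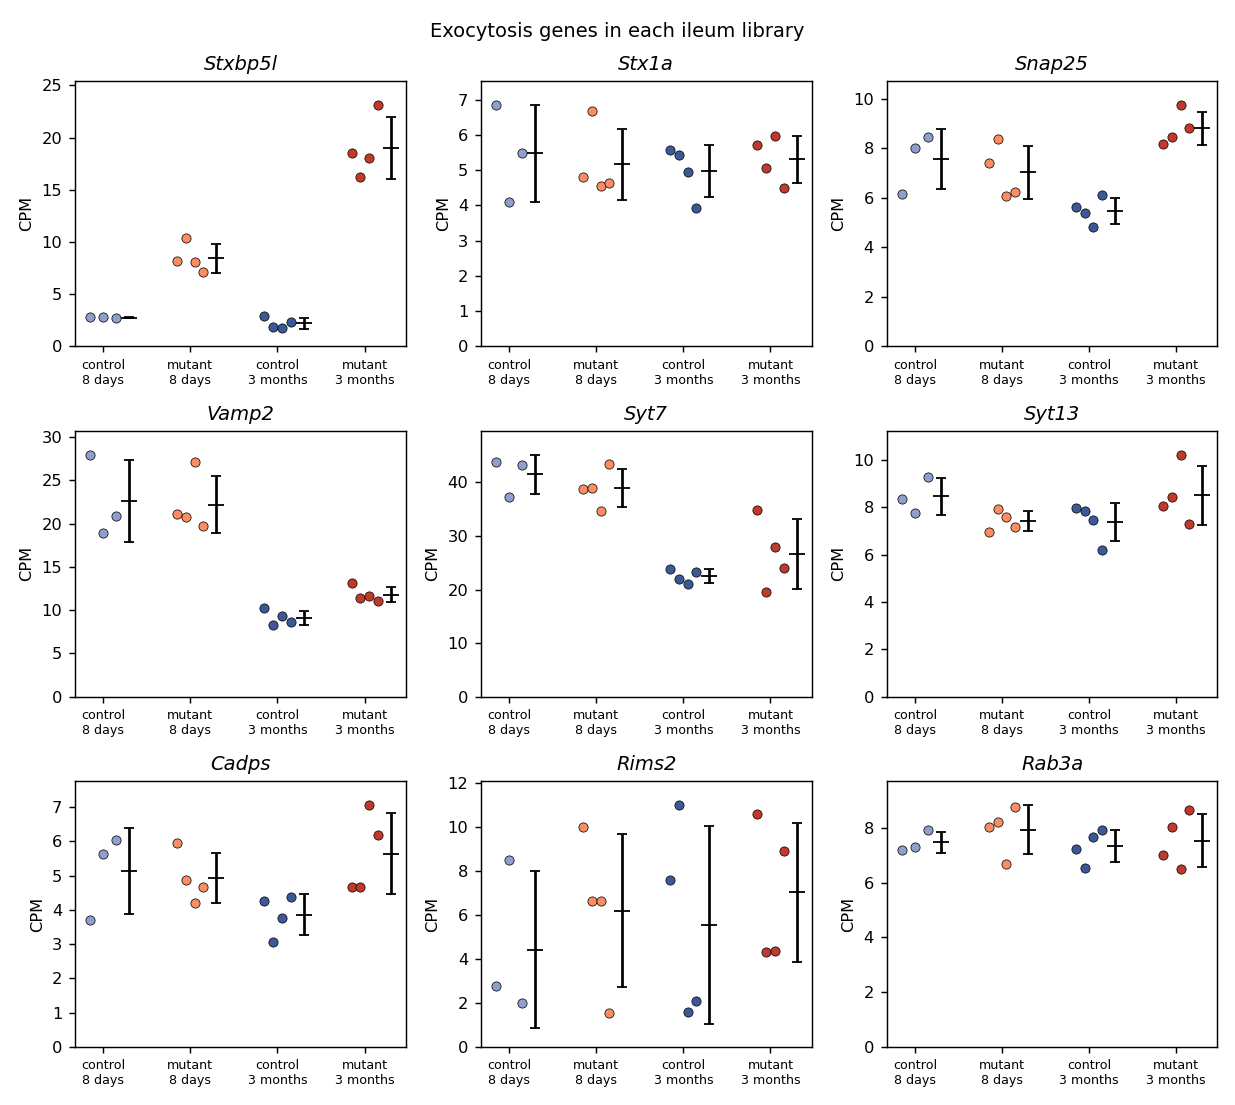
Level of each of the 9 exocytosis genes in CPM (linear axis from 0) in each of the 15 ileum libraries, by group; points are libraries and the horizontal mark with bars is the group mean and SD. Stxbp5l separates the groups at both times, with 7.1 to 10.4 CPM in mutants at 8 days and 16.2 to 23.1 at 3 months, while Rims2 runs from 1.53 to 11 CPM with high and low libraries in both genotypes.

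Stxbp5l encodes tomosyn-2, which binds syntaxin and SNAP25 in place of the vesicle SNARE. At 8 days it stood at 2.81, 2.8 and 2.7 CPM in the 3 controls and at 8.19, 10.4, 8.04 and 7.1 CPM in the 4 mutants. The groups did not overlap, the controls lay within 1.04-fold of each other, and the lowest mutant was well above the highest control. The means were 2.77 ± 0.0631 (SD, n = 3) and 8.43 ± 1.4 CPM (SD, n = 4), a 3.05-fold difference. The log2 fold change was 1.61 (SE 0.16), past the threshold in edgeR's quasi-likelihood test with a Benjamini-Hochberg adjusted p of 0.00786. Leaving out any 1 of the 3 controls kept the size at 1.58 to 1.62 but took the adjusted p to 0.0743 to 0.0857.

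At 3 months Stxbp5l stood at 2.94, 1.86, 1.76 and 2.34 CPM in controls and at 18.5, 16.2, 18 and 23.1 CPM in mutants. Every mutant was above every control, and replicate 4 was the highest. The raw counts behind these values were 46 to 86 in controls and 507 to 695 in mutants. The means, 2.23 ± 0.537 and 19 ± 2.94 CPM (SD, n = 4 each), differed 8.52-fold. edgeR's quasi-likelihood test gave a log2 fold change of 3.10 (SE 0.19) at an adjusted p of 0.000102. Against the 2 Rfx6f/f controls alone it gave 2.85 at an adjusted p of 0.00326. Within the controls the 2 Rfx6f/f libraries had the higher values, 2.94 and 2.34 CPM, and the 2 Rfx6f/+ libraries the lower, a difference not tested. Control levels at the 2 times were close, and the mutant level at 3 months was above that of 8 days in every library.

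The difference between the changes at the 2 times was tested in a fit of all 15 libraries. For Stxbp5l it was 1.48 (SE 0.24) on the log2 scale, a larger change at 3 months (edgeR quasi-likelihood interaction test, adjusted p = 0.0224). It was the 1 member of 9 called in this test, which called 0.785% of 17959 genes, 0.379% with a positive and 0.406% with a negative difference. The call was lost with the Rfx6f/f controls only (1.25, adjusted p = 0.121) and without control replicate 2 or 3 of either time, with adjusted p from 0.0512 to 0.079.

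The promoter of Stxbp5l is shown because this gene moved most, beside that of Stx1a, the syntaxin that tomosyns bind, which did not pass the test at either time. The 300-base windows run from 250 bases before to 50 after the start site in RefSeq's table for GRCm38.p6, which held windows of 4 of the 9 members. Stxbp5l lies on the minus strand at chr16:37384909-37385208, and Stx1a on the plus strand at chr5:135023232-135023531. Capitals mark GC boxes (GGGCGG on either strand) and CCAAT boxes.
Stxbp5l: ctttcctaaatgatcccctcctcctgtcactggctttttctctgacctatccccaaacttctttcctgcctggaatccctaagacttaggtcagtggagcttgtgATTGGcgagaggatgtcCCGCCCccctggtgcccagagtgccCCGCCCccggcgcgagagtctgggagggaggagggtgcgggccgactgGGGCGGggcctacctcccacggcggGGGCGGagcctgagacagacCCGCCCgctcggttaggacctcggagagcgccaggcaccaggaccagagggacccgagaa
Stx1a: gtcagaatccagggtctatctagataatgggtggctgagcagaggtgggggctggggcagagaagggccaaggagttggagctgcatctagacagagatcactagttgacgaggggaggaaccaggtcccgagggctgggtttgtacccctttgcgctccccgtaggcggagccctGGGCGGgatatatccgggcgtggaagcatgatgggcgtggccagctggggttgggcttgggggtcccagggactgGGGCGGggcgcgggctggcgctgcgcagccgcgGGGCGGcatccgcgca

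Both windows are rich in G and C, 65% in Stxbp5l and 66.3% in Stx1a, against a median of 52.7% over 32851 windows. Stxbp5l holds 5 GC boxes, at -128, -103, -55, -30 and -10 from the start site, and a CCAAT box on the opposite strand at -145. Stx1a holds 3 GC boxes, at -74, +2 and +35, and no CCAAT box. A GC box occurs in 35.7% of all windows and a CCAAT box in 37.4%; these 2 motifs were added after the sequences had been seen. The other motifs searched on both strands were the X-box of RFX factors (GTNNCC, a spacer of 0 to 3 bases, GGNAAC), the RE1 half-sites of the neuronal repressor REST (TTCAGCACC and GGACAGC), the E-box CAGATG and the TATA box TATAAA, and no matches overlapped. None of these motifs was found in the windows of Stxbp5l, Stx1a and Rab3a, the last with a pair of windows. The Cadps window held 1 CAGATG, at +42, and none of the others. Over all windows the X-box letters occur in 2.34%, the RE1 half-sites in 0.371% and 6.56%, CAGATG in 17.2% and TATAAA in 13.6%.

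Genes next to Stxbp5l were looked up after its values had been seen. In the order of GENCODE M21, its closest counted neighbours Polq and Gtf2e1 had log2 fold changes of -0.36 (edgeR adjusted p = 0.0511) and -0.03 (adjusted p = 0.891) at 3 months. The processed pseudogene Gm15665 lies inside Stxbp5l on the same strand, without sharing its exons. It had 1 to 3 counts in controls and 13 to 25 in mutants at 3 months, a log2 fold change of 3.20 (edgeR adjusted p = 0.0038). At 8 days it had 1 to 7 and 7 to 25 counts and was below the filter. The pseudogene thus moved with the gene that surrounds it, and the coding neighbours on both sides did not pass the test.

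The SNAREs of the plasma membrane and the vesicle come next. Snap25 encodes the target SNARE that supplies 2 helices of the fusion complex. At 3 months it stood at 5.63, 5.4, 4.83 and 6.1 CPM in controls and at 8.18, 8.48, 9.75 and 8.83 CPM in mutants. The groups did not overlap, and the highest value was in mutant replicate 3. The means were 5.49 ± 0.527 and 8.81 ± 0.682 CPM (SD, n = 4 each), and edgeR's quasi-likelihood test gave a log2 fold change of 0.70 (SE 0.11) at an adjusted p of 0.0106. Against the Rfx6f/f controls alone it gave 0.59 and an adjusted p of 0.135, which does not pass. At 8 days the values, 6.18 to 8.47 CPM in controls and 6.07 to 8.37 in mutants, covered the same range (log2 fold change -0.11, edgeR adjusted p = 0.94). The difference between the 2 times, 0.79 (SE 0.19), did not pass (edgeR adjusted p = 0.0585). It passed with DESeq2 (adjusted p = 0.00433) and in edgeR without mutant replicate 1 of 8 days (adjusted p = 0.0399).

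Vamp2 encodes synaptobrevin 2, the vesicle SNARE. At 3 months it stood at 10.2, 8.27, 9.28 and 8.68 CPM in controls and at 13.1, 11.4, 11.6 and 11.1 CPM in mutants. All 4 mutants were above all 4 controls, but by a small step, from 10.2 to 11.1 CPM. The means were 9.11 ± 0.841 and 11.8 ± 0.882 CPM (SD, n = 4 each), a ratio of 1.29, and edgeR's quasi-likelihood test gave a log2 fold change of 0.39 (SE 0.1) at an adjusted p of 0.0426. This call was lost in all 8 fits that left out 1 library (adjusted p = 0.0527 to 0.11), with the Rfx6f/f controls only (0.33, adjusted p = 0.26), without the filter (adjusted p = 0.0589) and in the fit of all 15 libraries (adjusted p = 0.0727). At 8 days Vamp2 was 22.6 ± 4.7 CPM in controls (SD, n = 3) and 22.2 ± 3.32 in mutants (SD, n = 4), and did not pass the test. These levels were above those of every 3-month library, in which cohort and time cannot be told apart.

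Stx1a, the syntaxin partner of SNAP25, gave overlapping values at both times. It ranged from 4.09 to 6.84 CPM in controls and 4.56 to 6.67 in mutants at 8 days, and from 3.93 to 5.57 and 4.48 to 5.97 CPM at 3 months. Its log2 fold changes were -0.08 (SE 0.21) and 0.11 (SE 0.15), with edgeR adjusted p of 0.971 and 0.644. Of the 3 SNARE members, the syntaxin did not pass the test at the time when the other 2 did, and a difference between these genes was not tested.

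**Figure D2:**
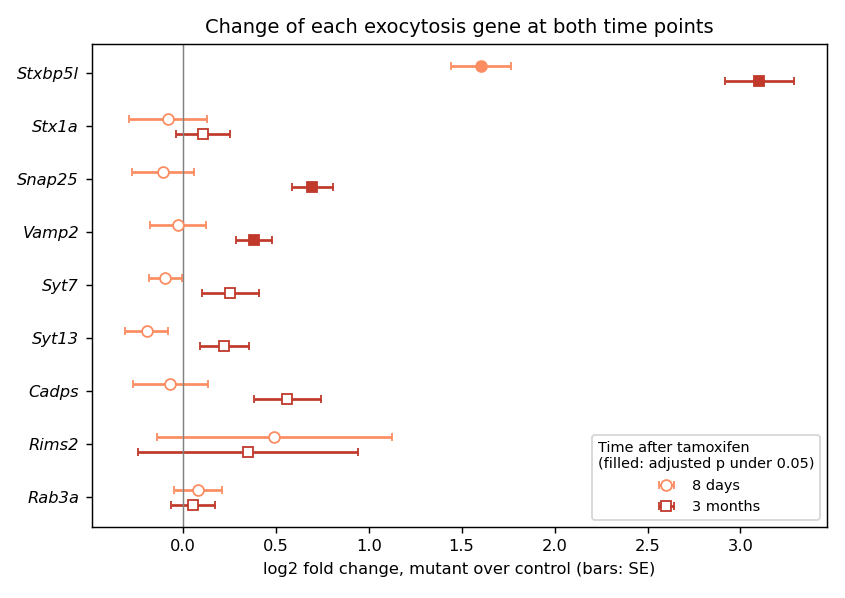
Log2 fold change of mutant over control for each exocytosis gene at 8 days (circles) and 3 months (squares), with bars of 1 SE from edgeR; filled symbols have an adjusted p under 0.05. Stxbp5l stands at 1.61 and 3.10, Snap25 and Vamp2 are filled at 3 months at 0.70 and 0.39, and the bars of Rims2 are the widest, 0.63 and 0.59.

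The synaptotagmins gave no called change. Syt7, a high-affinity calcium sensor of dense-core vesicle release, was 41.5 ± 3.58 CPM in controls (SD, n = 3) and 38.9 ± 3.56 in mutants (SD, n = 4) at 8 days. At 3 months controls lay close together, at 23.8, 21.9, 21 and 23.3 CPM, and mutants spread widely, at 34.9, 19.5, 28 and 24 CPM. Of the 4 mutants 3 were above every control, replicate 4 by a small step, and replicate 2 was below all of them, so the groups overlapped (log2 fold change 0.26, SE 0.15, edgeR adjusted p = 0.3). With 1 library left out the log2 fold change ran from 0.101 to 0.375, without a call. Syt7 shares 384 exon bases, 5.13% of its exon length, with Gm26859 on the opposite strand, a gene not in the count table.

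Syt13 encodes an atypical synaptotagmin without the calcium-binding residues of its relatives. Its values at 8 days were 7.75 to 9.28 CPM in controls and 6.97 to 7.91 in mutants, with 3 of 4 mutants below every control. At 3 months they were 6.2 to 7.99 and 7.3 to 10.2 CPM, with 3 of 4 mutants above every control. The log2 fold changes were -0.20 (SE 0.12) and 0.22 (SE 0.13), and neither passed (edgeR adjusted p = 0.714 and 0.289). Their difference of 0.40 (SE 0.17) did not pass either (edgeR adjusted p = 0.248).

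Cadps encodes CAPS1, which primes dense-core vesicles for fusion. At 3 months it stood at 4.27, 3.05, 3.76 and 4.38 CPM in controls and at 4.66, 4.67, 7.05 and 6.19 CPM in mutants. The groups did not overlap, but mutant replicates 1 and 2 lay just above the highest control. The log2 fold change was 0.56 (SE 0.18) and missed the threshold in edgeR's quasi-likelihood test (adjusted p = 0.081), while DESeq2 put it at 0.57 with an adjusted p of 0.0324. Without mutant replicate 3 the edgeR value was 0.44 with an adjusted p of 0.164. At 8 days the ranges, 3.7 to 6.05 and 4.2 to 5.94 CPM, overlapped fully (log2 fold change -0.07, edgeR adjusted p = 0.974).

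Rims2 encodes RIM2, a scaffold that ties vesicle-bound Rab3 to the release site. It was the member that varied most between libraries of the same group. At 8 days it stood at 2.77, 8.52 and 1.98 CPM in controls and at 10, 6.65, 6.63 and 1.53 CPM in mutants. At 3 months it stood at 7.58, 11, 1.57 and 2.1 CPM in controls and at 10.6, 4.32, 4.38 and 8.9 CPM in mutants. High and low libraries occurred in each group, up to 6.97-fold apart among the 3-month controls, where the 2 Rfx6f/f libraries stood at 7.58 and 2.1 CPM and the 2 Rfx6f/+ libraries at 11 and 1.57. The lowest library of the 15 still had 41 counts. The log2 fold changes of 0.49 (SE 0.63) and 0.35 (SE 0.59) were smaller than their errors (edgeR adjusted p = 0.924 and 0.724).

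The spread of Rims2 was set against all genes by the SD of log2 CPM around the 4 group means. It was 1.11 for Rims2, at percentile 98.6 of 16810 genes tested at both times and at 97.3 among 1501 genes within 0.5 log2 units of its level. The other 8 members had SDs of 0.149 for Rab3a to 0.28 for Cadps, against a median of 0.176 over all genes. Within groups, Rims2 followed none of the marker sums: its correlation with the neuron, enterochromaffin and peptide hormone lists was 0.05, -0.09 and -0.37 over 15 libraries (permutation p = 0.867, 0.79 and 0.305; Spearman's rho 0.17, -0.11 and -0.38).

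**Figure D3:**
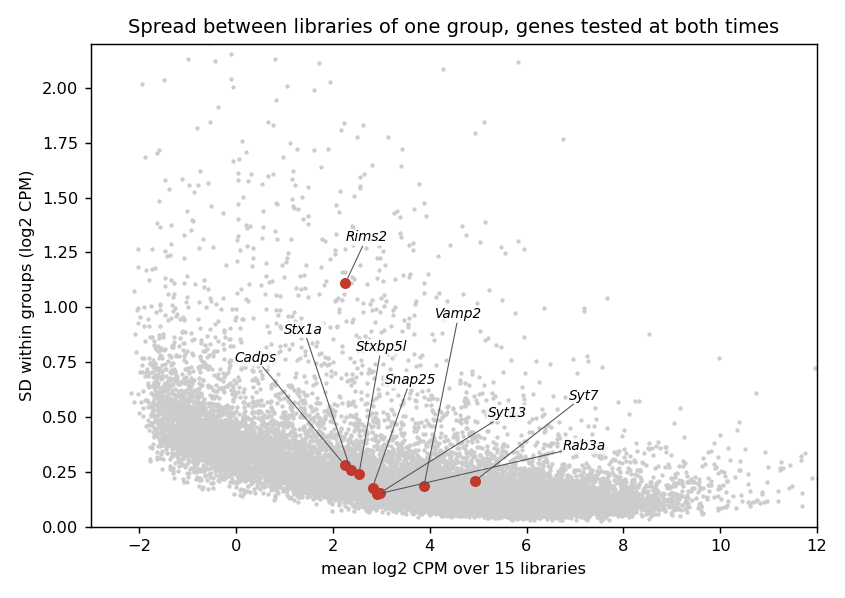
SD of log2 CPM within the 4 groups against the mean log2 CPM over 15 libraries, for 16810 genes tested at both times (grey; 47 lie outside the axes) and the 9 exocytosis genes (red). Rims2 stands at 1.11, and the other 8 members lie between 0.149 and 0.28.

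Rab3a, the GTPase that recruits RIM and rabphilin to secretory vesicles, showed the smallest spread of the 9. It was 7.48 ± 0.398 CPM in controls (SD, n = 3) and 7.94 ± 0.896 in mutants (SD, n = 4) at 8 days, and 7.35 ± 0.595 and 7.55 ± 0.969 CPM (SD, n = 4 each) at 3 months. The log2 fold changes were 0.08 (SE 0.13) and 0.05 (SE 0.12), and did not pass (edgeR adjusted p = 0.94 and 0.793). The groups overlapped at both times. Rab3a shares 29 exon bases, 1.3% of its exon length, with Mpv17l2 on the opposite strand, and reads over them cannot be assigned where strand was not used in counting.

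Levels of the 9 genes were compared with each other per kilobase of exon. In the 8-day controls Vamp2 (5.93 ± 1.23 CPM per kilobase) and Syt7 (5.54 ± 0.479) were highest with overlapping ranges, followed without overlap by Rab3a at 3.36 ± 0.179 (SD, n = 3). Syt13 (2.25) and Stx1a (2.05) overlapped, Snap25 stood apart at 1.11, and Rims2 (0.426), Cadps (0.341) and Stxbp5l (0.325) closed the order with overlapping ranges. In the 3-month controls Rab3a (3.3) and Syt7 (3.01) led with overlapping ranges, ahead of Vamp2 at 2.39, and Stxbp5l (0.261) and Cadps (0.257) were again last. In the 3-month mutants the order changed most for Stxbp5l, which at 2.23 ± 0.345 CPM per kilobase (SD, n = 4) lay between Syt13 (2.26) and Stx1a (1.99) and overlapped both, above Snap25 at 1.3. The tomosyn gene was thus among the scarcest members in controls and in the range of its syntaxin partner in the 3-month mutants. Lengths come from GENCODE M21 on GRCm38, while the submitters' processing notes name mm9, so levels per kilobase are approximate.

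Genes whose pattern was most like that of a called member were ranked by the correlation of log2 CPM over the 15 libraries after removal of each cohort's mean, which keeps the difference between genotypes. Predicted genes, Riken clones, genes named by an accession number and genes without a symbol were left out of this ranking. For Stxbp5l they were Esr1 (r = 0.97), which encodes an oestrogen receptor, the cytochrome Cyp2u1 (0.96) and Lmx1a (0.96), an enterochromaffin transcription factor. For Snap25 they were Cadm1, Vcl and Zfp532, and for Vamp2 they were Nfat5, Zfp609 and Atxn2, all with r of 0.92 or 0.93. Among the members themselves Snap25 was most like Cadps (0.83) and then Stxbp5l (0.74), and less like its SNARE partners Vamp2 (0.32) and Stx1a (0.13). These values describe 15 libraries that share depth and tissue composition, and carry no test.

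The rest of the pathway was read from a list of 114 other exocytosis genes, of which 113 were found in the tables. This list too was chosen with earlier results of these data known, so its counts are no independent comparison with all genes. At 8 days edgeR called 0 of 106 tested, against 0.0915% of all genes, as did DESeq2 and limma-voom. Of these, 3 had an unadjusted p under 0.05 in edgeR's test, 39 log2 fold changes were positive and 67 negative, and the median was -0.04. At 3 months 13 of 105 were called, 11 higher and 2 lower, against 9.28% of all genes, of which 4.96% were higher and 4.32% lower, and the list's median was 0.05. The count of 13 fell to 6 genes without mutant replicate 3, to 1, Rimbp2, without control replicate 1, 2 or 3, and to 0 with the Rfx6f/f controls only.

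The called genes are given by their step of release. Of the 24 other SNAREs edgeR called 0 at 3 months (median -0.02), with 2 at an unadjusted p under 0.05, and DESeq2 called 2, Stx11 and Vamp3. Of 17 priming and active zone genes 7 passed, 5 higher and 2 lower, where 9.28% of all genes passed, 4.96% higher and 4.32% lower. Rimbp2, which links RIM to calcium channels, had the smallest p: it stood at 2.56 to 3.33 CPM in controls and 5.02 to 7.05 in mutants, with no overlap and a log2 fold change of 1.05 (SE 0.14) at an edgeR adjusted p of 0.00697. Pclo, the active zone scaffold piccolo, changed by 0.78, the Munc13 priming factors Unc13a and Unc13b by 0.71 and 0.27, and Rims4, a short RIM, by 1.32 from only 5 to 8 counts in controls to 12 to 32 in mutants. Baiap3, a Munc13 relative of dense-core vesicle traffic, went the other way, from 8.54 to 14 CPM in controls to 3.14 to 8.06 in mutants (log2 fold change -1.21, SE 0.29, edgeR adjusted p = 0.0374). Unc13d, the Munc13 of blood cell granules, changed by -0.46.

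Among the other steps, 1 of 14 tested genes in the list of synaptotagmins and other calcium sensors was called, Syt12, near the share of all genes. It changed by 0.75 and shares 950 exon bases with A930001C03Rik on the opposite strand. The Rab genes and effectors Rab3c, Mlph and Sytl2 had log2 fold changes of 0.80, 0.32 and 0.31, 3 called of 22, all higher, against 4.96% of all genes. Syn2, a synapsin that tethers vesicles, was called at 0.51, as 1 of 16 vesicle membrane genes, near the share of all genes. In the test between times 3 of 107 genes passed, against 0.785% of all genes: Rimbp2 and Pclo with a larger change at 3 months (1.16 and 0.94) and the myosin Myo5a with a lower one (-0.69). Mean Pclo was 4.35 CPM in controls and 3.85 in mutants at 8 days, and 1.86 and 3.16 at 3 months. Mean Rimbp2 was 5.31 and 4.87 CPM at 8 days, and 2.98 and 6.1 at 3 months. Controls of both genes were thus lower at 3 months, where cohort and time cannot be told apart.

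**Figure D4:**
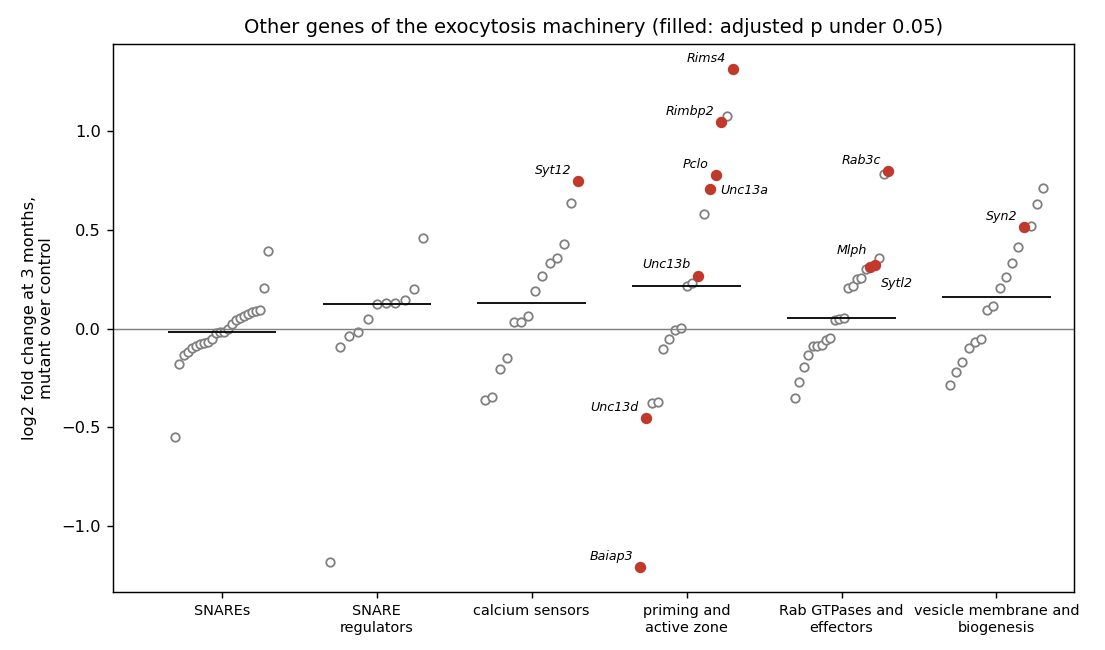
Log2 fold change at 3 months, mutant over control, for genes of the wider exocytosis list, grouped by step; filled points have an edgeR adjusted p under 0.05 and lines are medians of the points drawn. The 24 SNAREs hold no filled point around a median of -0.02, and 7 of 17 priming and active zone genes are filled, from -1.21 for Baiap3 to 1.32 for Rims4.

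In bulk ileum a lower or higher level can come from fewer or more cells of a type or from less or more RNA per cell, and these cannot be told apart. Marker lists of the cells that use this machinery were therefore measured beside it. Of 14 tested neuron markers edgeR called 0 at 3 months, with 1 at an unadjusted p under 0.05, 12 positive and 2 negative log2 fold changes, and a median of 0.22. Their summed level was 66.1 to 70.6 CPM in controls and 62.9, 67.2, 71.5 and 95 CPM in mutants, the last being replicate 3, which also had the highest smooth muscle sum of its cohort at 2976 CPM. At 8 days the neuron sums were 79.5 to 111 CPM in controls and 74.4 to 98.5 in mutants, with 0 of 16 called by edgeR, 2 at an unadjusted p under 0.05, 14 negative log2 fold changes and a median of -0.27. None of the 16 neuron markers was at 0 in any group. The 3 mutants of 3 months with neuron sums of 62.9 to 71.5 CPM had Snap25 at 8.18 to 8.83 CPM, where controls had 4.83 to 6.1. Vip was the largest part of these sums, with means of 21.8 CPM in controls and 18.5 in mutants at 3 months. It was 1 of the 2 negative markers, so in the sum its lower mean offsets part of the rise of the 12 positive ones. The part of neurons in the Snap25 difference was not tested. Without replicate 3 the log2 fold change of Snap25 was 0.64 (edgeR adjusted p = 0.0259) and that of Stxbp5l 3.13 (adjusted p = 0.00069).

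Enterochromaffin markers, from the epithelial cells that make serotonin, moved in the same direction as the called members. At 3 months 6 of 7 tested were higher and called, with a median of 1.58, and the sum of the 8 listed was 187 to 230 CPM in controls and 447 to 518 in mutants. At 8 days it was 150 to 199 and 189 to 234 CPM, with 7 of 7 log2 fold changes positive, 0 called by edgeR and 3 at an unadjusted p under 0.05. Markers of peptide hormone cells moved the other way, with 8 of 8 called lower at 3 months, sums of 148 to 233 CPM against 18.3 to 23.4, and 5 of 9 called lower at 8 days. No marker of either list was at 0 in a whole group. edgeR called none of the glia, smooth muscle, epithelium, immune, tuft and Paneth markers at either time, and of the goblet markers it called 1, Muc2, at 3 months. Most of these lists had 0 to 2 markers at an unadjusted p under 0.05, and the immune list had 4 of 6 at each time, with medians of 0.72 at 8 days and -0.63 at 3 months. Smooth muscle markers had 6 of 6 positive log2 fold changes at each time, with medians of 0.35 and 0.38. Glia markers had 2 of 7 positive at 8 days and 7 of 7 at 3 months (medians -0.06 and 0.15), and epithelium markers 5 of 5 negative at each time (median -0.13). Goblet markers had 3 of 4 positive at 8 days and 4 of 4 at 3 months (medians 0.02 and 0.34). Their sums at 3 months did not overlap, with 12039 to 14463 CPM in controls and 16440 to 17689 in mutants. At 3 months the log2 fold change of Stxbp5l was 3.10, and those of the tested enterochromaffin markers ran from -0.09 for Tac1 to 1.87 for Tph1. A difference between Stxbp5l and these markers was not tested. The part of these cell types in the members' changes was not tested.

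Within the groups, each member was compared with 3 marker sums over the 15 libraries, 27 pairs in all, after removal of the 4 group means. Snap25 followed the neuron sum most closely (r = 0.78, rho = 0.78, permutation p = 0.00396, adjusted p = 0.107), and r was 0.77 without the 2 libraries farthest from the median. Cadps had r = 0.71 with the neuron sum (adjusted p = 0.172, 0.59 without the 2 farthest libraries) and 0.69 with the enterochromaffin sum (adjusted p = 0.172, 0.64). Stxbp5l had r = 0.13 with the neuron sum, with rho at 0, and 0 with the enterochromaffin sum (permutation adjusted p = 0.84 and 0.99), and r was 0.28 and 0.25 without the 2 farthest libraries. The enterochromaffin sum was weighted to its most abundant genes. In 3-month controls Chgb averaged 67 CPM and Ddc 53.4, against 7.97 for Tph1 and 1.27 for Lmx1a. Its correlations therefore say little about the scarcer markers. None of the 27 pairs passed after adjustment.

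**Figure D5:**
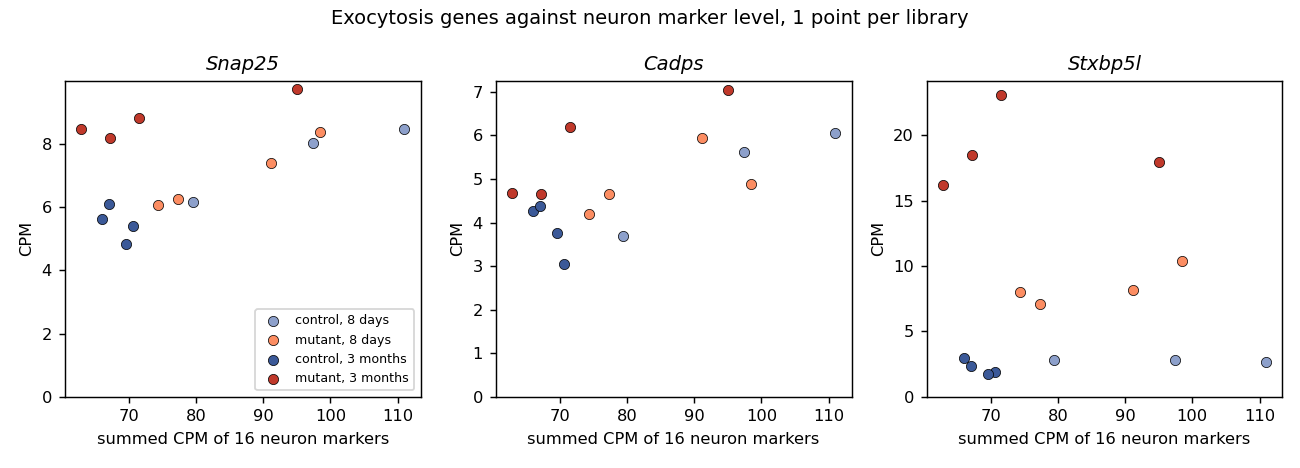
Level of Snap25, Cadps and Stxbp5l in CPM against the summed CPM of 16 neuron markers, 1 point per library in 4 groups. At neuron sums of 62.9 to 71.5 CPM, 3 of the 3-month mutants lie above the 3-month controls for Snap25, Stxbp5l and Cadps, in Cadps replicates 1 and 2 by a small step. The mutant at 95 CPM of neuron markers has the highest Snap25 (9.75 CPM) and Cadps (7.05 CPM) of its group.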

How the data were processed

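The authors deposited raw read counts per Ensembl gene, 1 table per cohort and 1 column per library. The submitters' processing notes name mm9, bcl2fastq 2.17.1.14, Bowtie 1.0.0, TopHat2 2.0.10, Bowtie2 2.1.0 and HTSeq 0.6.1, with no role or order. Annotation release and strand setting are not given in the sources used here. Per the labels' protocols, RNA was depleted of ribosomal RNA after TRI-reagent or RNeasy extraction, and which sample had which is not recorded; the molecule label names polyA RNA. Symbols came from GENCODE M21. Each time point was fitted alone with edgeR 4.0.16 (R 4.3.3, filterByExpr minimum count 10, TMM scaling, quasi-likelihood F test, two-sided), with Benjamini-Hochberg adjustment over all genes and calls under 0.05; the difference between times was an interaction contrast over 15 libraries with 4 group means. CPM for display use 1 TMM scaling of all 15 libraries. Correlations within groups used 100000 permutations of libraries. All 9 members, called pathway genes, and for called members the 3 most alike genes, with predicted and unnamed genes left out, are named. The values of 1 pathway gene are not reported here, though counts over the list include it. Members and lists were chosen with earlier results of these data known. Alternatives were DESeq2 1.42.0, limma-voom 3.58.1, other scalings and filters, robust empirical Bayes, a joint fit, controls limited to Rfx6f/f, and omission of each library in turn. Tests were first tested on simulated data. Figures used matplotlib 3.10.9.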

Additional observations from a re-analysis of the deposited data

Results flagged for a closer look

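Of 36 checks for a library far from the other 3 of its group, over the 9 members and 3 marker sums in groups of 4, 1 passed, where a chance rate of 1 in 20 would give 1.8. Stx1a was 6.67 CPM in mutant replicate 2 at 8 days and 4.56 to 4.79 CPM in the other mutants of that time. The change of 4 genes differed between the times in the interaction test: Stxbp5l by 1.48, Rimbp2 by 1.16, Pclo by 0.94 and Myo5a by -0.69 on the log2 scale, each with edgeR adjusted p under 0.05 in the fit of all 15 libraries. Myo5a, a vesicle motor, had log2 fold changes of 0.41 at 8 days and -0.27 at 3 months, neither called alone (edgeR adjusted p = 0.46 and 0.068), with groups that did not overlap at either time.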

How the results depend on the processing

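Stxbp5l kept its direction in all alternatives and its call at 3 months in all 17, and Snap25 kept its call at 3 months in 16 of 17. Genes called at 8 days went from 16 to 178 with DESeq2, 27 without a filter and 25 in the joint fit, and ran from 8 to 200 with 1 library left out (200 without mutant replicate 1); members called ran from 0 to 1. At 3 months genes went from 1586 to 2983 with DESeq2 and 36 with Rfx6f/f controls only (391 to 1521 with 1 left out), pathway genes from 13 to 20 with DESeq2 or the joint fit and 0 with Rfx6f/f controls only (1 to 12), and members from 3 to 1 with those controls (2 with 1 left out). For the difference between times, members went from 1 to 2 with DESeq2 and 0 with Rfx6f/f controls only (0 to 2); genes from 141 to 1017 with DESeq2, 41 with limma-voom, 78 without the 20 most counted genes in the scaling, 223 without a filter, 248 with 10 counts in every library and 5 with Rfx6f/f controls only (10 to 749); and pathway genes from 3 to 11 with DESeq2, 1 with limma-voom, 1 without those 20 genes and 0 with those controls (0 to 6). The cause was not tested, except that those controls and each omission leave fewer libraries. Signs of uncalled members turned: at 8 days Stx1a ran from -0.246 to 0.104, Vamp2 from -0.136 to 0.147 and Cadps from -0.255 to 0.067 with 1 library left out, at 3 months Rab3a from -0.014 to 0.12, and the differences of Rims2 from -1.07 to 0.427 and Rab3a from -0.122 to 0.047, with Rims2 at 0.048 for Rfx6f/f controls only. No paired analysis was possible because no label links a mutant animal to a control animal and replicates were numbered in deposit order. Every member had 41 counts or more in every library; depth limits Rims4, with 5 to 8 counts in the 3-month controls.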
